A study of Mus musculus with 2 samples.

Results

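Germinal center B cells with at least 1 transcript of Myc were compared within each library according to whether they held transcripts of the cell cycle. Of 11418 barcodes that passed the limits on genes (at least 500), unique molecular identifiers (UMIs, each standing for 1 captured RNA molecule; at least 2000) and mitochondrial UMIs (at most 25%), 1391 held at least 1 Myc UMI, 745 in library 1 and 646 in library 2. Cells were called cycling when the UMIs of 6 genes of replication and mitosis (Mki67, Top2a, Cdc6, Ccne2, Mcm6 and Cdc20) summed to at least 3, and not cycling when the sum was 0. The cycling class held 684 and 583 barcodes, and the not cycling class held 17 and 25. A further 44 and 38 barcodes had 1 or 2 of these UMIs and belonged to neither class. The members were thus chosen by the measured UMIs of Myc and of the 6 genes, and these 7 genes are left out of the results.

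Cells were sorted from the spleens of 8-week-old C57BL/6J mice, an inbred strain, after immunization with SRBC (sheep red blood cells, often used to induce a T cell dependent response). They were profiled with the 10x Genomics 3′ kit, version 3, in 2 libraries of 1 group, numbered 1 and 2 after their titles. How many mice were used, whether they were pooled and which sort markers served is not given in the sources used here. The deposited matrices held 75121538 UMIs over 8765 barcodes and 61874342 UMIs over 7868 barcodes, and the libraries shared 22 barcode sequences, 11 among the kept barcodes and 0 among the Myc-positive ones. Whether each library had its own mice is not stated, and p-values therefore rest on the spread between these libraries, which may be technical.

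Myc encodes a transcription factor that drives cell growth and entry into the cell cycle. In germinal centers it is known to be induced briefly in the light zone, where B cells take up antigen and receive T cell help, and the selected cells then divide, largely in the dark zone. Its targets include genes of ribosome synthesis, nucleotide synthesis and energy metabolism, while NF-kB, a family of transcription factors activated by CD40, is among the signals that induce it.

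The classes differed in depth, the total UMIs of a barcode. Not cycling Myc-positive barcodes had a median of 4452 UMIs in library 1 (2217 to 12985) and 6370 in library 2 (2348 to 13357). Cycling ones had 14362.5 (2065 to 84792) and 15096 (2986 to 91571). In all, the not cycling class held 91881 and 173680 UMIs and the cycling class 13661683 and 12089298. The cycling median lay above the deepest not cycling barcode in both libraries. The class with 1 or 2 cycle UMIs stood near the not cycling class, with medians of 4943 and 5681 UMIs. Barcodes just outside and just inside the limit of 3 had medians of 4676 and 5289.5 UMIs in library 1 (16 barcodes with 2 cycle UMIs and 16 with 3). In library 2 these were 8089 and 6413 UMIs (15 and 10 barcodes). Most not cycling barcodes rested on 1 Myc UMI (13 of 17 and 16 of 25, with up to 5 and 8), as did 461 of 684 and 364 of 583 cycling ones. The median mitochondrial share was 18.1% and 10.2% in the not cycling class and 11.5% and 11.4% in the cycling class.

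Detection of Myc followed depth. Between 4000 and 8000 UMIs, Myc was found in 7.06% and 6.98% of all not cycling barcodes and in 6.93% and 7.45% of cycling ones, each within the interval of the not cycling share. Between 2000 and 4000 UMIs the shares were 1.23% (exact 95% binomial interval 0.337% to 3.13%) and 3.83% (1.67% to 7.40%) of not cycling barcodes, against 3.60% and 2.37% of cycling ones. Between 8000 and 16000 UMIs the libraries were unlike, with Myc in 1 of 24 (4.17%) and 11 of 28 (39.3%) not cycling barcodes, against 12.5% and 13.9% of cycling ones. Above 16000 UMIs it was found in 30.2% and 36.2% of cycling barcodes, a depth reached by no not cycling barcode of library 1 and by 1 of library 2. Intervals cover counting error only. Because the classes differ in depth, each main result is given again on depth-matched classes, in which equal numbers of barcodes of both classes were drawn at random per bin of total UMIs. That left 15 and 22 barcodes a class, with medians of 5344 and 7985.5 UMIs (not cycling) against 5248 and 8039 (cycling). A larger matched set took the not cycling class at 0 to 2 cycle UMIs, with 55 and 54 barcodes a class. It mixes in the barcodes between the classes and was added after seeing the data.

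**Figure D1:**
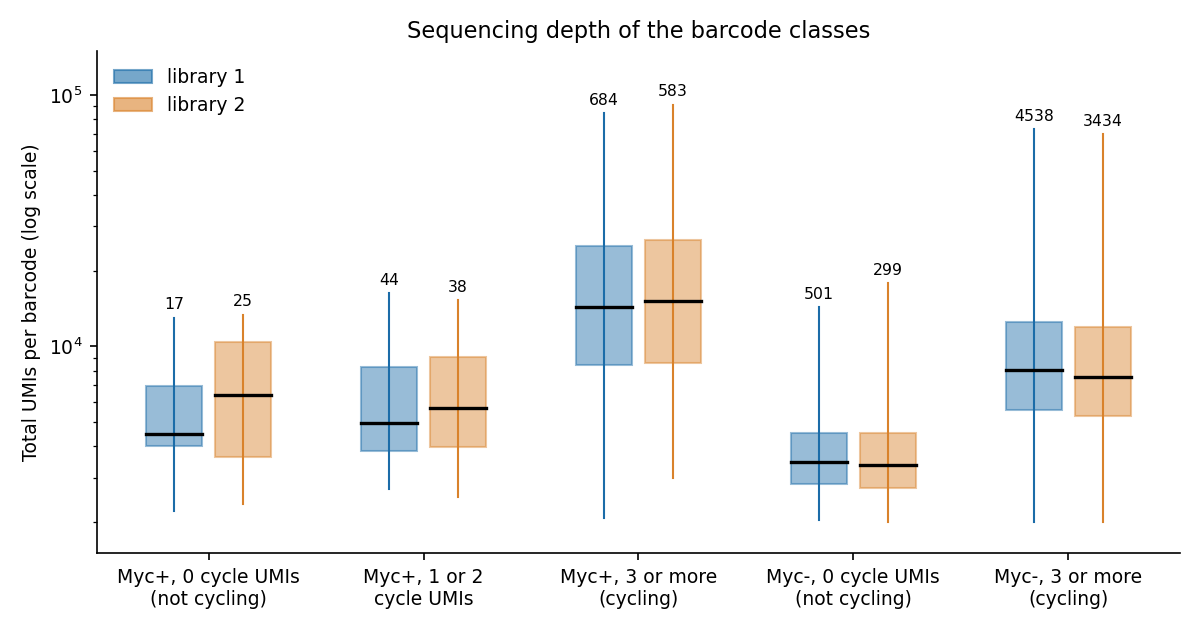
Total UMIs per barcode (log scale) of the Myc-positive and Myc-negative classes in libraries 1 and 2. Boxes span the quartiles, lines mark the median, whiskers reach the lowest and highest barcode and the numbers are barcodes; the not cycling Myc-positive medians of 4452 and 6370 UMIs lie below the cycling medians of 14362.5 and 15096.

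Not cycling Myc-positive cells had a larger share of their RNA from light zone, T cell contact and resting B cell genes, and cycling ones more of growth and chaperone genes. At matched depth the first pattern was found for part of its genes, and most of the second was not found. Counts were summed per library and class and tested with edgeR's quasi-likelihood test with library as a block, and p-values were adjusted by Benjamini-Hochberg over all genes. With 4 sums edgeR estimated an infinite prior, which means that the spread was pooled over genes and a gene's own disagreement between the libraries had no weight in its p. All log2 fold changes are cycling minus not cycling with their standard error (SE), and levels are CPM, the counts of a gene per 1000000 UMIs of the class sum (n = 1 sum per library and class). Of 9829 genes tested, 1120 passed (11.4%), 794 higher (8.08%) and 326 lower (3.32%) in cycling cells. At matched depth 331 of 2075 passed (16.0%), 175 higher (8.43%) and 156 lower (7.52%). The low-count filter kept fewer genes there, and a gene could be kept by its counts in 1 class alone. Cd38, Ccnd2, Marcks, Mndal and Nfkbie, given below, were kept by their not cycling counts. Counts of list members called at matched depth are therefore drawn from a selected part of each list. Of the 175 higher calls, 132 were also called on the full classes, and of the 156 lower calls, 56. In the larger matched set 980 of 5095 passed (19.2%), 518 higher (10.2%) and 462 lower (9.07%). The median over all genes was 0.21 in the full classes, 0.01 at matched depth and 0.003 in the larger matched set, which is the background for the medians of gene lists below. With 17 not cycling barcodes in library 1, single barcodes carried much of some sums, so results are also given without the barcode of each library that held the most light zone UMIs (chosen after seeing the data; 989 of 9819 genes called, 10.1%).

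**Figure D2:**
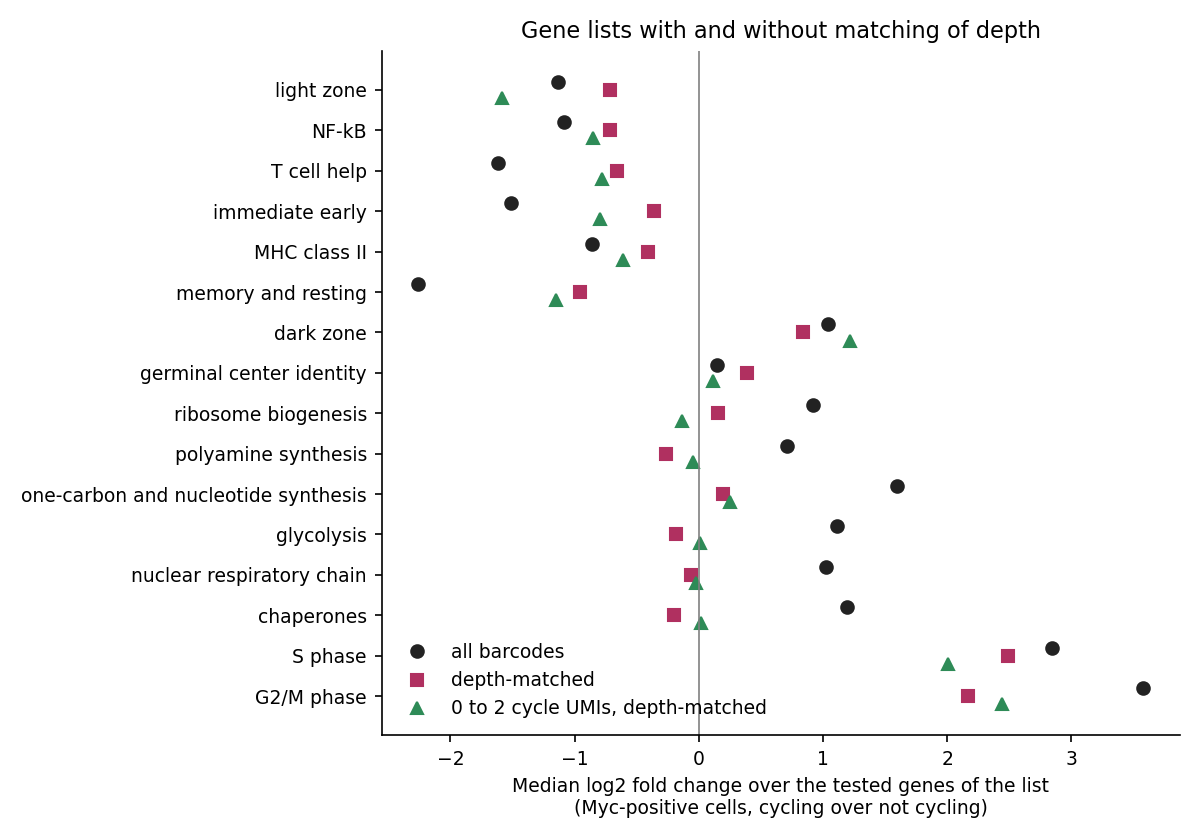
Median log2 fold change (cycling minus not cycling, Myc-positive cells) of 16 gene lists in the full classes, at matched depth and in the larger matched set. The light zone list lies below 0 in all 3 settings (−1.13, −0.72 and −1.59), whereas the ribosome biogenesis list moves from 0.92 to 0.16 and −0.13.

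Light zone genes, which mark B cells that collect antigen and T cell signals, were lower in cycling than in not cycling Myc-positive cells. Of 16 list members tested, 0 were called higher and 9 lower, with a median log2 fold change of −1.13 (−1.25 with Bcl2a1a, which had no UMI in the not cycling class, at its bound). Il4i1 (chr7:44816387-44840809, mm10), which encodes a phenylalanine-degrading oxidase released by activated B cells, stood at 795 and 1112 CPM in not cycling cells of libraries 1 and 2 and at 89.5 and 111 in cycling cells. Both not cycling values lay far above both cycling ones, and the class with 1 or 2 cycle UMIs lay between, at 515 and 1031. The log2 fold change was −3.10 ± 0.31 (edgeR adjusted p = 9.77e-21). At matched depth the levels were 841 and 1150 against 150 and 350, and Il4i1 fell by 2.03 on the log2 scale (edgeR adjusted p = 6.04e-12). Of the not cycling barcodes, 10 of 17 and 18 of 25 held an Il4i1 UMI. Shares of barcodes with a UMI were not set against a cell type that lacks the gene, so the part of free RNA in them was not tested.

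The adhesion ligand gene Icam1 stood at 272 and 317 CPM in not cycling cells and 72.7 and 84.4 in cycling cells (log2 fold change −1.77 ± 0.29, edgeR adjusted p = 1.67e-07). At matched depth it fell by 1.41 on the log2 scale (edgeR adjusted p = 0.00147). Fcer2a, the low-affinity IgE receptor CD23, stood at 403 and 513 against 114 and 118, and the lymphocyte receptor gene Slamf1 at 316 and 253 against 66.5 and 77.5. For both genes the libraries of the classes did not overlap, with log2 fold changes of −1.84 and −1.82, but at matched depth these were −0.53 (edgeR adjusted p = 0.188) and −0.41 (0.447) and did not pass. Bcl2a1b, an anti-apoptotic BCL2 relative induced by NF-kB, stood at 414 and 697 against 138 and 206 (log2 fold change −1.55 ± 0.29, edgeR adjusted p = 7.54e-06). Depth-matched classes gave −1.90 (edgeR adjusted p = 1.92e-08). Its reads are uncertain among the near-identical copies Bcl2a1a, Bcl2a1b and Bcl2a1d. In library 1 only 4 of 17 barcodes held a Bcl2a1b UMI and 1 barcode held 31 of the 38.

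Single barcodes weighed on these sums. In library 1 the not cycling class held 362 light zone UMIs, of which 174 (48.1%) came from 1 barcode. In library 2 the top barcode held 154 of 1004 (15.3%). Without these 2 barcodes 6 of 16 members were lower (2.9% of all genes) and the list median was −0.56. Il4i1 then had −2.77 on the log2 scale (edgeR adjusted p = 3.70e-09), whereas Bcl2a1b had −0.56 and did not pass (0.463). Per barcode, the median light zone UMIs per 10000 were 21.6 (0 to 134) in library 1 and 37.3 (0 to 149) in library 2 for depth-matched not cycling cells. Depth-matched cycling cells had medians of 13.3 (0 to 146) and 15.1 (0 to 128). The not cycling median was higher in both libraries, and the ranges overlapped almost entirely. At matched depth 7 of 13 tested members were lower (median −0.72), and in the larger matched set 13 of 14 (median −1.59). The depth-matched not cycling class of library 1 still held the top barcode, with 174 of 360 light zone UMIs (48.3%). Matching of depth was not combined with leaving out the top barcodes.

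**Figure D3:**
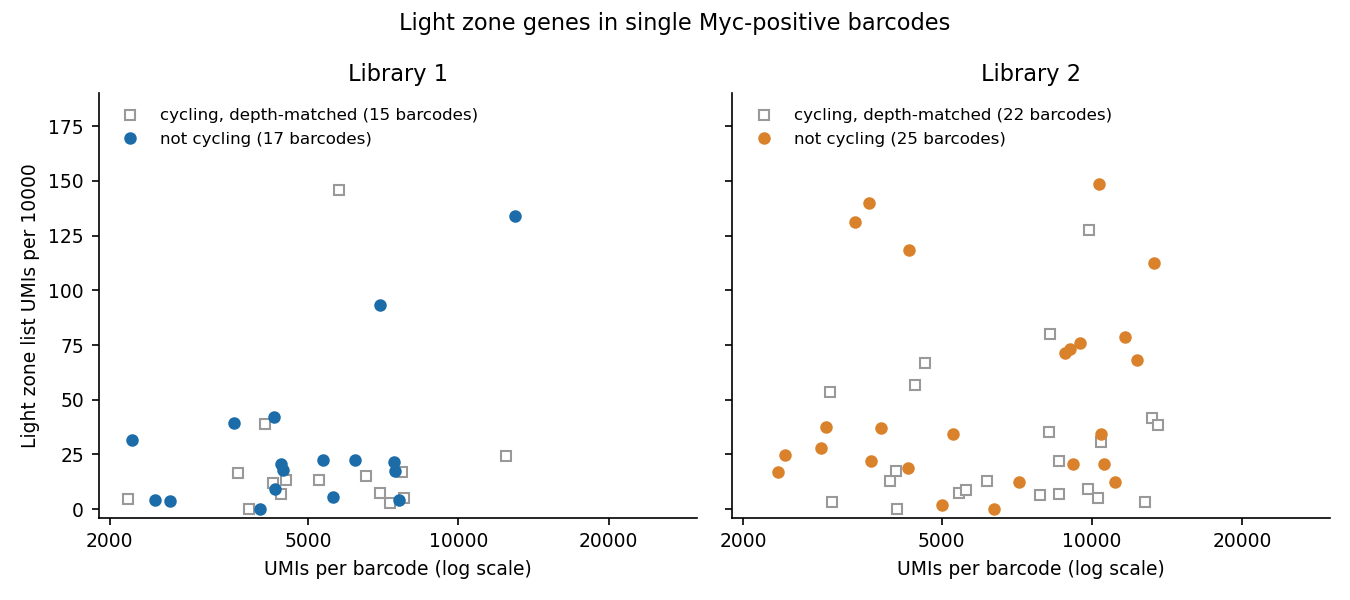
Light zone list UMIs per 10000 UMIs (vertical axis) against total UMIs (horizontal axis, log scale) of single Myc-positive barcodes in libraries 1 and 2, with not cycling barcodes as filled circles (17 and 25) and depth-matched cycling barcodes as open squares (15 and 22). Both classes hold barcodes near 0 and barcodes above 100, and in library 1 the top not cycling barcode is also the deepest.

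NF-kB genes followed the light zone genes, with which the list shares Nfkbia and Traf1. To show sequence that NF-kB could read beside these values, the start regions of the feedback genes Nfkbie and Tnfaip3 are printed from RefSeq (GRCm38.p6), 5′ to 3′ on the gene's strand, with NF-kB motif matches in capitals. They were picked after their values were seen.
Nfkbie, chr17:45555450-45555749, plus strand: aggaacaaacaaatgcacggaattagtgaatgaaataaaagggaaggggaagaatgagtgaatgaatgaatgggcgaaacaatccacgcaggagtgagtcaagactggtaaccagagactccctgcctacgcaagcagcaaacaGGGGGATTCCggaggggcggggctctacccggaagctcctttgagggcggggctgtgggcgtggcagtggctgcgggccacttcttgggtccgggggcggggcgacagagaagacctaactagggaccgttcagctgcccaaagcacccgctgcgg
Tnfaip3, chr10:19015361-19015660, minus strand: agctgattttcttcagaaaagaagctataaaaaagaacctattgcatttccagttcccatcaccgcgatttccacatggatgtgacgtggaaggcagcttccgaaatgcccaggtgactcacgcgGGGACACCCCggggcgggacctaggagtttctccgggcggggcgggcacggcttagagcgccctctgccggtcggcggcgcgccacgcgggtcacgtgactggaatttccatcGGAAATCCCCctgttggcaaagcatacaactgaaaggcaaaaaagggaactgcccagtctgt
The motif, searched on both strands, lay in 4.51% of 32851 windows of 300 bases and in 10 of 27 windows (37.0%) of the 22 genes from the NF-kB and light zone lists that had a RefSeq window. A match is a description of letters and not a binding site. Of 14 NF-kB genes tested, 0 were higher and 7 lower in cycling cells (median −1.08). Nfkbie, which holds NF-kB in the cytoplasm, stood at 207 and 190 CPM in not cycling and 42.7 and 50.6 in cycling cells (log2 fold change −1.94 ± 0.31, edgeR adjusted p = 4.55e-08). At matched depth Nfkbie was at 219 and 199 against 46.2 and 36.2 (−2.41, edgeR adjusted p = 3.24e-05), so the classes lay apart in every library. Tnfaip3, which encodes the enzyme A20 that ends NF-kB signalling, was at 120 and 109 against 18.2 and 20.2 (−2.43 ± 0.44, edgeR adjusted p = 2.88e-06; −1.98 at matched depth, 0.0108).

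The other NF-kB genes were less even. Nfkbiz, a nuclear cofactor, stood at 54.4 and 127 CPM against 18.3 and 20, and Birc3, an inhibitor of apoptosis, at 65.3 and 173 against 40.8 and 48.2. Both passed in the full classes (log2 fold changes −2.20 and −1.38) and neither passed at matched depth (edgeR adjusted p = 0.571 and 0.179). There 2 of 8 tested genes, Nfkbie and Tnfaip3, were lower (list median −0.72), and in the larger matched set 8 of 14 (median −0.85). On sums in which each barcode was thinned at random to 2000 UMIs, which gives every barcode equal weight, Nfkbie had −0.60 (edgeR adjusted p = 0.761) and Tnfaip3 −0.98 (0.686). In library 1, 11 of 19 Nfkbie UMIs and 8 of 11 Tnfaip3 UMIs came from 1 barcode each.

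Genes of contact with T cells and of antigen presentation were also lower in cycling Myc-positive cells. Of 12 tested T cell help genes (13 listed), 0 were higher and 7 lower (median −1.62). The list shares Icam1, Slamf1, Cd86 and Cd40 with the light zone list. Cd86, which costimulates T cells, stood at 196 and 276 CPM against 55.8 and 67.2 (log2 fold change −1.82 ± 0.30, edgeR adjusted p = 2.07e-07). A Cd86 UMI was found in 15 of 17 and 16 of 25 not cycling barcodes, so this difference was spread over many of them, and at matched depth it was −1.38 (edgeR adjusted p = 0.00852). Il2rg, the shared receptor chain for interleukins 4 and 21, was at 54.4 and 173 against 33.5 and 31.8 (−1.80, edgeR adjusted p = 5.02e-05) and did not pass at matched depth (0.315). Of 10 MHC class II genes, 4 were lower (median −0.86), 3 at matched depth (−0.41; H2-Oa, H2-Aa and H2-Eb1) and 9 in the larger matched set (−0.61). H2-Oa, a chain of the modulator of peptide loading, stood at 152 and 282 against 62.3 and 67.0 (−1.65 ± 0.31, edgeR adjusted p = 5.46e-06; −1.49 at matched depth, 0.00468). Its partner chain H2-Ob had −1.29, the class II transactivator Ciita −1.33 and the peptide loading chain H2-DMb1 −0.89, but at matched depth these were −0.43, −0.32 and −0.03 and did not pass.

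Immediate early genes, switched on within minutes of antigen receptor signalling, rested largely on library 2. Of 11 tested (12 listed), 7 were lower in cycling cells (median −1.51), but at matched depth 0 of 8 passed (median −0.36). Egr3 had no UMI in the not cycling class of library 1 and stood at 271 CPM in library 2, against 15.6 and 9.29 in cycling cells. The fitted log2 fold change was −3.51 ± 0.44 (edgeR adjusted p = 5.50e-13), with opposite signs in the libraries (5.71 and −4.81). Egr1 also had opposite signs, at 32.7 and 173 against 45.2 and 29.4. The orphan receptor gene Nr4a1 was at 32.7 and 104 against 7.19 and 3.48 (−3.77 ± 0.74, edgeR adjusted p = 1.94e-05), higher in the not cycling class of both libraries. Jun, part of the factor AP-1, had −1.59 in the full classes and 0.11 at matched depth (edgeR adjusted p = 0.914).

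Genes of memory and resting B cells had the lowest median of the 16 lists plotted above. Of 15, 0 were higher and 11 lower in cycling cells (median −2.26). At matched depth only 5 had enough counts to be tested, and 3 were lower (−0.96), Cd38, Btg1 and Fcmr. Of these, Cd38 entered the test through its not cycling counts. Cd38 (chr5:43868553-43912375), an ectoenzyme high on naive and memory B cells and low on mouse germinal center cells, stood at 87.1 and 161 CPM against 8.66 and 12.9. The log2 fold change was −3.42 ± 0.47 (edgeR adjusted p = 5.88e-11). At matched depth Cd38 was at 92.2 and 169 against 0 and 6.03 (−4.93, edgeR adjusted p = 1.32e-06). The classes were apart in both libraries, although the UMIs came from 3 of 17 and 11 of 25 barcodes. Btg1, an antiproliferative gene, was spread more widely, with a UMI in 14 of 17 and 24 of 25 barcodes, at 523 and 1071 against 187 and 188 (−1.91 ± 0.31, edgeR adjusted p = 5.54e-08; −1.24 at matched depth, 5.43e-05). Foxp1, a forkhead factor that keeps B cells quiescent, was at 392 and 420 against 135 and 122 (−1.53) and did not pass at matched depth (edgeR adjusted p = 0.491).

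Markers of naive B cells moved with this signal, and their part in it was not tested. The 6 naive markers summed to 697 and 1370 CPM in not cycling and 269 and 309 in cycling cells, and the 5 memory markers to 109 and 299 against 27.6 and 32.0. Of the naive markers 5 of 6 were lower in cycling cells, among them Ighd, the IgD heavy chain (65.3 and 132 against 14.8 and 16.9). The memory marker Ccr6, a chemokine receptor gene, was at 10.9 and 121 against 4.99 and 5.39. In the not cycling class 2 and 6 barcodes were resting-like, with at least 3 UMIs of 4 resting-cell genes that include Klf2. Some of these genes are in the list itself, so a smaller count without these barcodes is partly fixed by the filter. Without such barcodes 6 of 13 memory and resting genes were lower (2.28% of all genes lower and 8.92% called; list median −1.68). The 11 germinal center B cell markers were all detected in the not cycling class and summed to 4560 and 5654 CPM, against 3426 and 3515 in cycling cells, so the sorted identity was present in both.

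Among genes outside the lists, Mndal, Marcks, Ifi203, Capg, Zeb2 and Pdcd4 were lower in cycling cells. Mndal and Ifi203 belong to the interferon-inducible p200 family, whose near-identical copies make their counts uncertain. Mndal stood at 207 and 334 CPM against 21.6 and 28.7 (log2 fold change −3.31 ± 0.30, edgeR adjusted p = 9.05e-25; −3.54 at matched depth, 7.08e-10), and Ifi203 at 131 and 155 against 10.1 and 12.8. Marcks, an actin-binding substrate of protein kinase C, stood at 446 and 276 against 31.8 and 33.5 (−3.27 ± 0.29, edgeR adjusted p = 2.31e-25; −4.47 at matched depth, 3.42e-14). Capg, an actin filament capping protein, was at 65.3 and 340 against 11.1 and 24.7 and the transcription factor gene Zeb2 at 87.1 and 230 against 14.1 and 18.2. Pdcd4, an inhibitor of translation, was at 65.3 and 121 against 7.63 and 7.21. In all 6 genes both not cycling values lay above both cycling values. The same sign in both libraries was a condition of their choice. The lysosomal nuclease gene Pld3, the inhibitory receptor gene Cd300lf, the adaptor gene Sh3bp2 and the integrin gene Itgb7 completed the 10 largest decreases, at −3.62, −3.64, −3.00 and −2.99.

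Macrophage RNA was present in 1 library. The 7 macrophage markers summed to 1121 CPM in the not cycling class of library 1 (103 UMIs, 1 marker at 0) and 28.8 in library 2 (5 UMIs, 6 markers at 0), against 7.17 and 6.87 in cycling cells. Most of the UMIs in library 1 came from 1 barcode. In that class a single barcode held 25 of the 41 Marcks UMIs. Without barcodes that held at least 2 UMIs of another lineage (1 and 2 not cycling barcodes) Marcks had a fold change of −2.59 on the log2 scale (edgeR adjusted p = 4.36e-13). The light zone list was then again lower in 9 of 16 genes (2.97% of all genes lower and 10.4% called; list median −1.05) and the memory and resting list in 11 of 15 (−2.18). Of T cell markers the not cycling class held 0 and 2 UMIs, of dendritic markers 1 and 0, and of natural killer, neutrophil, erythroid, stromal and platelet markers 0 in both libraries.

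**Figure D4:**
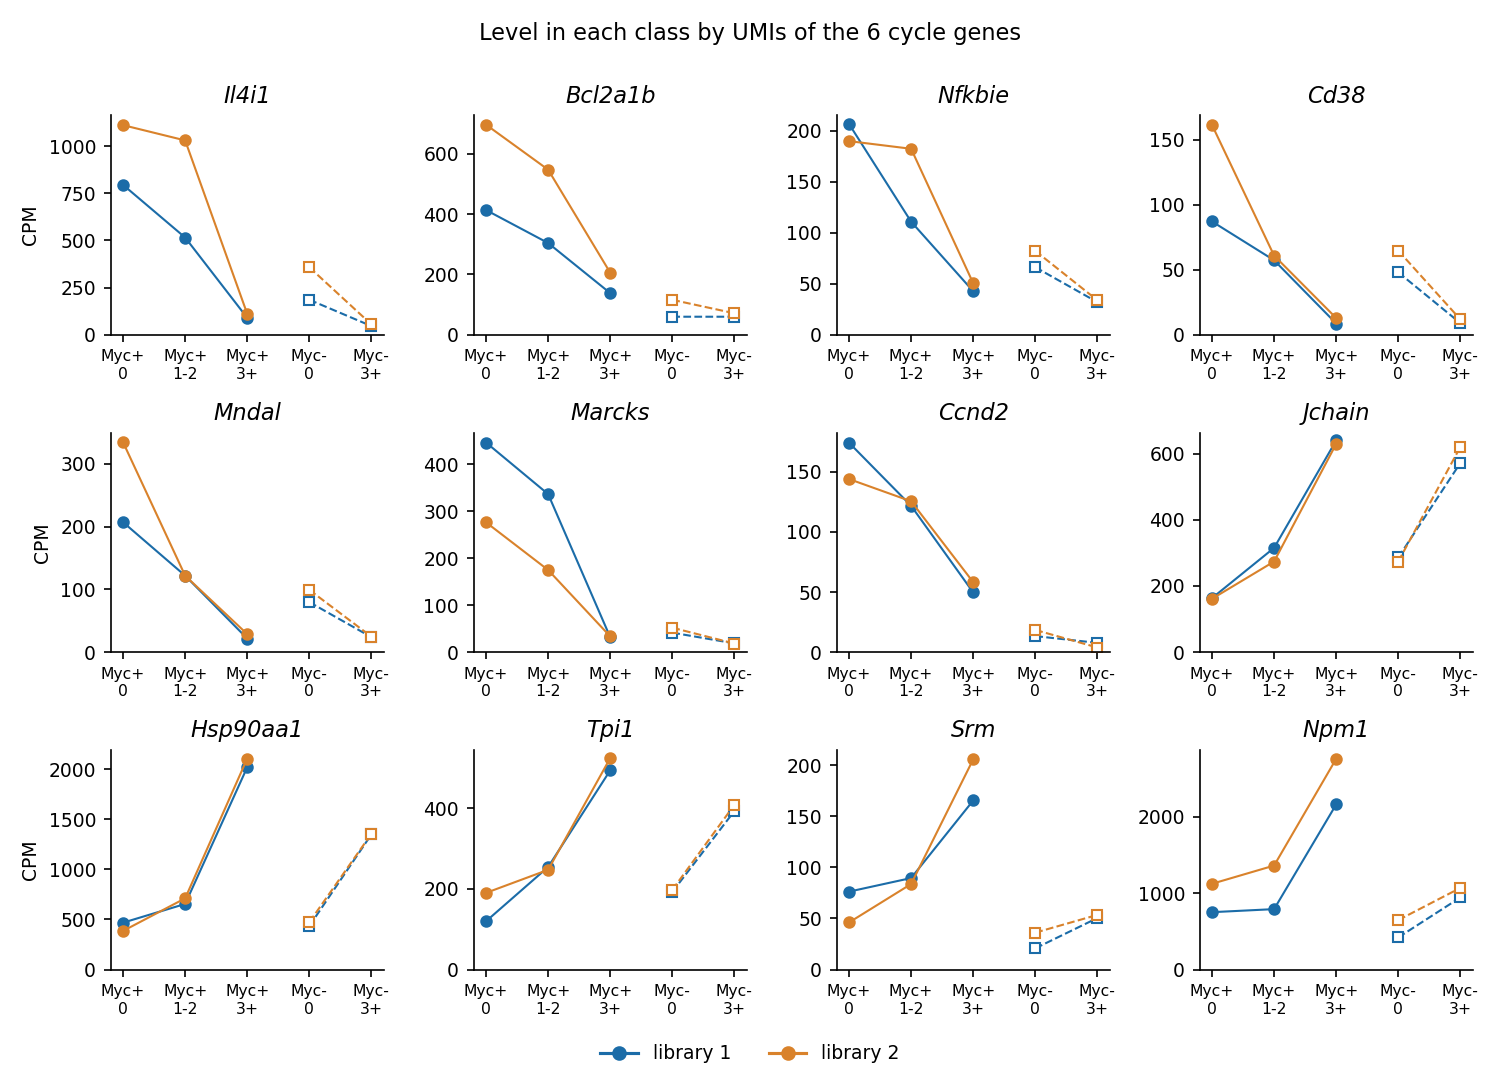
CPM of 12 genes in library 1 (blue) and library 2 (orange) for Myc-positive classes with 0, 1 to 2 and 3 or more cycle UMIs (filled circles) and Myc-negative classes with 0 and 3 or more (open squares, dashed). Il4i1, Nfkbie, Cd38, Mndal and Marcks are highest in the not cycling Myc-positive class in both libraries, except that Nfkbie is nearly as high in the class with 1 or 2 cycle UMIs in library 2 (190 against 182).

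Regulators of G1 moved in both directions. Ccnd2, the D-type cyclin induced on activation, was at 174 and 144 CPM in not cycling and 49.7 and 58.2 in cycling Myc-positive cells. Its log2 fold change was −1.39 ± 0.32 (edgeR adjusted p = 0.000484). At matched depth Ccnd2 was at 184 and 151 against 11.6 and 6.03, which is 1 UMI in each cycling class (−4.25, edgeR adjusted p = 3.30e-07). In Myc-negative cells it stood at 13.4 and 18.5 (not cycling) and 7.73 and 3.87 (cycling). The Myc-positive not cycling sums were thus the highest of the 4 classes, but they came from 3 of 17 and 8 of 25 barcodes, 12 of the 16 UMIs of library 1 from 1 barcode. Without the top light zone barcodes the log2 fold change was −0.86 (edgeR adjusted p = 0.166), and on thinned sums −0.01. Ccnd3, the D-type cyclin used by dividing germinal center cells, was instead higher in cycling cells, at 340 and 354 against 229 and 97.9 (1.36 ± 0.33, edgeR adjusted p = 0.00116; 0.89 at matched depth, 0.0969). Its partner kinase gene Cdk4 was at 209 and 270 against 87.1 and 63.4 (1.87), and Cdk6 had 2.0. In the full classes 4 of 10 tested regulators were higher, Ccnd3, Cdk4, Cdk6 and the pocket protein gene Rbl1, which rested on 1 not cycling UMI. Ccnd2 was lower.

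Survival genes and Myc partners changed in few members. Of 14 tested BCL2 family genes 2 were lower, Bcl2a1b and Bcl2 itself (21.8 and 92.1 against 8.37 and 9.70; log2 fold change −2.64, edgeR adjusted p = 0.00114), and the list median was −0.39 (−0.55 with 1 gene at its bound). Without the resting-like barcodes Bcl2 did not pass (−1.56, edgeR adjusted p = 0.58). Of 9 tested partners and antagonists of Myc, Mxd4, which competes with Myc for its partner Max, was lower in cycling cells at 34.0 and 26.0 against 185 and 150 (−2.35 ± 0.34, edgeR adjusted p = 9.98e-10; −0.91 at matched depth, 0.148). Mxd3, another antagonist known from dividing cells, was at 26.6 and 27.9 in cycling cells and had no UMI in not cycling cells, which makes it at least 2.41-fold higher against a floor of 3 counts over the class (11.3 CPM). Of 7 amino acid transporter genes Slc38a2 was lower (−1.23), and it did not pass at matched depth.

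Growth genes were higher in cycling Myc-positive cells, and most of that difference was not found at matched depth. To show a member with the E-box CACGTG, the motif read by Myc and Max, the start region of Eif5a is printed from RefSeq (GRCm38.p6), with the motif in capitals.
Eif5a, chr11:69921337-69921636, minus strand: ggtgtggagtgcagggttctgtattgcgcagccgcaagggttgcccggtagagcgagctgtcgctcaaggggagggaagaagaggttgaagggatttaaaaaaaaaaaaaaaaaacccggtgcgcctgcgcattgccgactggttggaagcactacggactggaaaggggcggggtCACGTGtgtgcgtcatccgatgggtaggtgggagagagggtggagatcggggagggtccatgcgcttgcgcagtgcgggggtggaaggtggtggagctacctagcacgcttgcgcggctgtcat
The E-box, its own reverse complement, lay in 7.15% of all 32851 windows and in 8 of 31 windows (25.8%) of the 22 ribosome biogenesis and polyamine genes that had one. Eif5a, the translation factor modified with a polyamine, stood at 729 and 685 CPM in not cycling and 1325 and 1627 in cycling cells (log2 fold change 1.21 ± 0.36, edgeR adjusted p = 0.0104). At matched depth it was at 761 and 717 against 416 and 555 (−0.64, edgeR adjusted p = 0.0585). In library 1, 50 of the 67 not cycling UMIs of Eif5a came from 1 barcode, and 66 of the 67 were in the matched class, against 36 in the matched cycling class. Processed pseudogenes make the counts of Eif5a and Npm1 uncertain.

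Of 21 ribosome biogenesis genes, 8 were higher in cycling cells and 0 lower (median 0.92), while at matched depth 0 of 11 were higher and 1, Npm1, lower (0.16). Npm1, a nucleolar chaperone of ribosome assembly, stood at 751 and 1123 CPM against 2161 and 2758 (log2 fold change 1.55 ± 0.40, edgeR adjusted p = 0.00209). At matched depth Npm1 was at 772 and 1174 against 393 and 796, so that the cycling class was lower in both libraries (−0.78, edgeR adjusted p = 0.00835). In the not cycling class of library 1 a single barcode held 37 of the 69 Npm1 UMIs and 126 of the 294 UMIs of the whole list (42.9%). The matched classes of library 1 held 67 Npm1 UMIs in not cycling and 34 in cycling cells. Per barcode, the median ribosome biogenesis UMIs per 10000 were 20 and 23.7 in depth-matched not cycling and 26.3 and 31.9 in depth-matched cycling cells. The nucleolar genes Ncl, Nolc1 and Nop58 had 1.37, 1.69 and 1.52, and 0.16, 0.67 and 0.28 at matched depth, where none of them passed.

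Polyamine, nucleotide, energy and folding genes gave the same picture. Odc1, the first enzyme of polyamine synthesis, was at 54.4 and 97.9 CPM against 229 and 271 (log2 fold change 1.78 ± 0.37, edgeR adjusted p = 5.99e-05; 0.29 at matched depth). The spermidine synthase gene Srm was at 76.2 and 46.1 against 165 and 206 (1.83) and at 80.7 and 48.2 against 34.7 and 66.4 at matched depth, where the libraries differed in direction. Of 17 one-carbon and nucleotide synthesis genes 11 were higher (median 1.59) and 0 of 7 at matched depth (0.19), with the serine synthesis gene Phgdh at 120 and 97.9 against 323 and 404. Impdh2, of guanine nucleotide synthesis, had 1.81, the nucleoside diphosphate kinase gene Nme1 1.59 and the folate enzyme gene Mthfd1 2.50. Of 20 nuclear genes of the respiratory chain 11 were higher (1.02) and 0 of 17 at matched depth (−0.07), where Cycs, cytochrome c, had −0.88 in place of 1.41.

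Glycolysis and chaperone genes held the exceptions. Of 14 glycolysis genes 6 were higher (median 1.11), and at matched depth 2 of 10 were higher, Tpi1 and Gapdh, and Eno1 was lower (−0.18). Tpi1, triosephosphate isomerase, stood at 120 and 190 CPM against 494 and 524 (log2 fold change 1.81 ± 0.34, edgeR adjusted p = 8.74e-06). With depth matched it was at 127 and 199 against 462 and 265, again higher in the cycling class of both libraries (0.92, edgeR adjusted p = 0.0328). Pkm, Pgk1 and Pgam1 had 1.49, 1.35 and 1.24 in the full classes and 0.23, −0.15 and −1.12 at matched depth. Of 13 tested chaperone genes 10 were higher (1.19), and at matched depth 1 of 12 was higher, Hsp90aa1, and 2 lower, Hspe1 and Cct2 (−0.20). Hsp90aa1 (chr12:110690605-110702728), the inducible cytosolic HSP90, was at 468 and 386 against 2020 and 2107 (2.43 ± 0.39, edgeR adjusted p = 8.95e-08). At matched depth it was at 472 and 379 against 912 and 989, with no overlap (1.13, edgeR adjusted p = 0.000108), and in the larger matched set 0.98 (5.13e-11). The mitochondrial chaperonin gene Hspd1 had 2.09 and the cytosolic chaperonin gene Tcp1 1.47, and −0.38 and 0.40 at matched depth.

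Dark zone genes were higher in cycling cells in 3 of 11 members and lower in 1 (median 1.04, or 0.53 with 1 gene at its bound). Gcsam, a regulator of B cell motility, was at 54.4 and 5.76 CPM in not cycling and 118 and 99.4 in cycling cells (log2 fold change 2.34 ± 0.51, edgeR adjusted p = 0.00015). Rgcc, a regulator of the cell cycle, rested on 2 not cycling UMIs (ratio 8.17, exact 95% interval from counting 2.26 to 67.5) and the deubiquitinase gene Otub2 on 1 (8.36, 1.5 to 331). The selenium carrier gene Selenop was lower (−1.70). At matched depth Gcsam was at 57.6 and 6.02 CPM in not cycling and 116 and 72.4 in cycling cells, on 5 and 1 against 10 and 12 UMIs. The count of dark zone genes called in those classes is not given here. In the larger matched set 5 of 7 dark zone genes were higher and 1 lower (1.22). Of 17 germinal center identity genes the B cell factor Ebf1 was lower (−1.05, edgeR adjusted p = 0.0106; −0.06 at matched depth), and the other 16 did not pass (list median 0.15). Jchain, the joining chain of secreted antibody, was the member of 7 tested plasma cell genes that passed, at 163 and 161 against 640 and 629 (2.10 ± 0.35, edgeR adjusted p = 2.30e-07; 0.95 at matched depth, 0.0405). When the classes were called on counts thinned to 2000 UMIs it had −0.07.

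Other genes of the cell cycle follow the genes that chose the classes and are given as a description. Start regions of 2 mitotic genes are shown for the cell cycle homology region (CHR), TTTGAA or TTCAAA on the other strand, in capitals, from RefSeq (GRCm38.p6).
Ube2c, chr2:164769679-164769978, plus strand: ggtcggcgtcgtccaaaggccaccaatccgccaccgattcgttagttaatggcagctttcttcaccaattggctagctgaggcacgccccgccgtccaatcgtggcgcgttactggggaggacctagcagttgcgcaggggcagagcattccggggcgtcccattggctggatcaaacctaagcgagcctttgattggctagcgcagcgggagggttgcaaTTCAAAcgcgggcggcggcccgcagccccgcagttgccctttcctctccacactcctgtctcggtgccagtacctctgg
Cdca3, chr6:124829926-124830225, plus strand: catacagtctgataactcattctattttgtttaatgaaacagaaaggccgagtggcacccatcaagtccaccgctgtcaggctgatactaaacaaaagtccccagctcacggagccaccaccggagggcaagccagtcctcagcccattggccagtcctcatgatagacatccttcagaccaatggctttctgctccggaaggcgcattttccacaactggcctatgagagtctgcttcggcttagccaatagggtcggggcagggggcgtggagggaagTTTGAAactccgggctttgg
The CHR lay in 17.9% of all windows and in 31 of 49 windows (63.3%) of the 44 G2/M genes that had one. Ube2c, the ubiquitin carrier of the mitotic destruction complex, was at 21.8 and 17.3 CPM in not cycling and 323 and 341 in cycling cells. Cdca3, a trigger of mitotic entry, was at 10.9 and 0 against 192 and 197. The replication clamp factor gene Pclaf was at 0 and 23.0 against 838 and 882, and Rrm2, a subunit of ribonucleotide reductase, had 1 not cycling UMI (ratio 66.2, interval 11.9 to 2617).

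Of the cycle lists, 37 of 41 S phase genes, 42 of 49 G2/M genes, 9 of 11 E, A and B cyclin genes and 8 of 12 histone genes were called higher in cycling cells and none lower. Their medians were 2.84, 3.58, 4.30 and 5.29 (2.33, 2.78, 2.34 and 1.85 with genes at 0 in the not cycling class at their bound). At matched depth 22 of 24, 19 of 23, 3 of 4 and 1 of 3 were called higher. Ccna2 and Ccnb1, the cyclins of S phase and mitosis, had no UMI in any not cycling barcode, which makes them at least 15.2-fold and 14.6-fold higher. Histone genes are near-identical copies and their transcripts mostly lack a poly(A) tail, so their counts are uncertain. The largest increases outside the lists were also of replication and mitosis: Asf1b, Esco2, Kif22 and Bub1b had no not cycling UMI and were at least 12.2-, 7.92-, 7.67- and 7.31-fold higher. Spc24, Prc1, Rfc5 and Chaf1a each had 1 not cycling UMI. These genes follow those of the rule, so their direction was largely set by it and does not test the class label.

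The same contrast was set against that in Myc-negative cells, where 4538 and 3434 barcodes were cycling and 501 and 299 not cycling (median depths 8048 and 7531.5, and 3474 and 3361 UMIs). The difference between the contrasts passed in 52 of 10627 genes (0.489%), 4 higher (0.0376%) and 48 lower (0.452%), where lower means a stronger decrease with cycling in Myc-positive cells. At matched depth 0 of 2343 passed by edgeR, with 88 at an unadjusted p under 0.05, and DESeq2 called 38 on the full classes. Marcks had the largest evidence (difference −1.99 ± 0.24, edgeR adjusted p = 1.67e-07): Myc-negative cells stood at 41.6 and 52.1 CPM (not cycling) and 18.7 and 18.3 (cycling). Bcl2a1b, at 59.9 and 116 against 59.9 and 71.3 in Myc-negative cells, differed by −1.32 ± 0.20 (edgeR adjusted p = 2.70e-05). The 4 higher genes were the chaperone gene Calr (1.04), Ccnd3 (1.15) and the nucleolar genes Sdad1 (2.36) and Mybbp1a (1.34). The heme oxygenase gene Hmox1, at 403 CPM in the not cycling Myc-positive class of library 1 and 0 in library 2, also passed, as did the lysosomal gene Psap. Their counts moved with the macrophage-marked barcode: without other-lineage barcodes 30 genes passed (0.287%), and Hmox1 and Psap did not.

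Without the top light zone barcodes 29 genes passed (0.273%), and neither Bcl2a1b nor Ccnd3 was among them. On thinned sums 3 passed (0.0364%), named here after their values were seen: Psap (−1.39), the lysosomal protease gene Ctsb (−2.46) and the translation factor gene Eef1d (1.64). Without the library block 1 passed, Marcks.

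Among not cycling cells, Myc-positive barcodes had more light zone and NF-kB RNA than Myc-negative ones in the full classes, which differed in depth. Their medians were 4452 and 6370 UMIs against 3474 and 3361, and at matched depth few genes passed, as given below. This comparison shares the not cycling Myc-positive sums with those above. Of 10627 genes 196 passed (1.84%), 138 higher (1.3%) and 58 lower (0.546%) in Myc-positive cells, and the median of all genes was −0.11. Bcl2a1b stood at 414 and 697 against 59.9 and 116 CPM (log2 fold change 2.75 ± 0.20, edgeR adjusted p = 9.32e-16). Il4i1 stood at 795 and 1112 against 186 and 358 (1.87 ± 0.15, edgeR adjusted p = 5.91e-14). The NF-kB inhibitor gene Nfkbia was at 305 and 743 against 140 and 182 (1.82), and Plac8, a small cysteine-rich protein, at 109 and 449 against 48.0 and 80.6 (2.27). The sums of these 4 genes were higher in the Myc-positive class in both libraries. For Plac8 1 barcode held 9 of the 10 UMIs of library 1 and another 40 of the 78 of library 2, and without resting-like barcodes it did not pass (1.02, edgeR adjusted p = 0.748). Of 16 light zone genes 9 were higher (median 1.31) and of 14 NF-kB genes 5 (0.94). Of 11 immediate early genes 5 were higher (0.98) and of 15 memory and resting genes 3 (1.14), among them Ccr6 and Cd38. Summed levels of these last 2 lists were higher in Myc-positive cells in library 2 only. Immediate early genes summed to 1578 and 2764 CPM in libraries 1 and 2, against 1814 and 1965 in Myc-negative cells. Memory and resting genes summed to 1633 and 3190 against 2119 and 2395. Of 21 ribosome biogenesis genes Npm1 and Nhp2 were higher (0.43).

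Germinal center identity genes went the other way, with 0 of 17 higher and 4 lower (median −0.43), among them Bcl6, Bach2 and S1pr2, and of 11 dark zone genes Foxo1 and Pafah1b3 were lower. Lower in Myc-positive cells by the lowest p were the adaptor gene Dok3 (163 and 104 against 322 and 348 CPM, log2 fold change −1.44), Lpp (−1.95), the repair glycosylase gene Mbd4 (−1.89), the ubiquitin ligase gene Neurl3 (−1.68) and the splicing gene Scaf11 (−1.0). At matched depth 5 of 2343 genes passed (0.213%; 151 at an unadjusted p under 0.05): Marcks (3.38), Bcl2a1b (2.07), Plac8 (2.05), and, named after their values were seen, the kinase gene Pim1 (1.89) and Gm42418 (0.92). Il4i1 had 1.24 there and did not pass (edgeR adjusted p = 0.192). Without the top light zone barcodes 88 genes passed (0.829%), 70 higher (0.659%), with 5 of 16 light zone genes among them. DESeq2 called 199, 170 higher and 29 lower, whereas on thinned sums the balance turned, with 16 higher and 25 lower.

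Among cycling cells the classes were large enough to match with most barcodes kept. With 652 and 519 barcodes a class at equal depth (medians 13362 and 13668 UMIs in the libraries), a setting added after seeing the data, 2279 of 10455 genes passed (21.8%), 1125 higher (10.8%) and 1154 lower (11.0%) in Myc-positive cells. On all barcodes 5976 of 10627 passed (56.2%, with 28.6% higher and 27.6% lower) with unequal depth. The equal-depth fit rested on 4 sums with 1 residual degree of freedom, and the fit on all barcodes on 8 sums. At equal depth all 21 ribosome biogenesis genes were higher (median 0.49), as were 15 of 16 light zone genes (1.11), 12 of 14 NF-kB genes (0.64) and 13 of 17 one-carbon and nucleotide genes (0.24). All 11 dark zone genes (−0.56), all 12 histone genes (−0.49) and 45 of 49 G2/M genes (−0.36) were lower. Batf, a transcription factor of activated lymphocytes, stood at 87.3 and 135 CPM in Myc-positive against 19.2 and 23.3 in Myc-negative cycling cells, and its log2 fold change at equal depth was 2.04 (edgeR adjusted p = 2.97e-156). Srm was at 165 and 206 against 50.4 and 53.5 (0.95 at equal depth), and the fatty acid carrier gene Fabp5 at 58.2 and 72.6 against 13.6 and 13.9 (0.82).

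Some genes that separated cycling from not cycling Myc-positive cells also separated the cycling classes, and others did not. At equal depth Ccnd2 was higher in Myc-positive cycling cells by 2.54, Nfkbia by 1.48, Tnfaip3 by 1.49, Il4i1 by 1.46 and Bcl2a1b by 1.09, and all of these passed. Ppp1r14b, a phosphatase inhibitor gene, had 0.58 and the mitochondrial import gene Timm8a1 0.62. The B cell repressor gene Bach2, which restrains terminal differentiation, was at 150 and 124 against 319 and 295 CPM (−0.67 at equal depth), and the linker histone gene H1fx had −0.77. The ubiquitin ligase gene March1, the noncoding gene Mirt1 and Pdzd2 had −0.38, −0.39 and −0.30. Mndal, Cd38, Ifi203 and Btg1 were not higher in this way: they had 0.06, 0.28 and −0.07, which did not pass, and −0.27, which did. Capg (0.18), Pdcd4 (−0.07), H2-Oa (−0.02), Ciita (0.08), Ccnd3 (0.05), Cdk4 (0.09) and Cdk6 (0.07) did not pass either. Pld3 (−0.58) and Jun (−0.27) passed and were lower in Myc-positive cycling cells.

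Zone and isotype were read per barcode. After thinning to 2000 UMIs, barcodes with Cd83 or Cd86 but without Cxcr4 were called light zone, and those with Cxcr4 alone dark zone. Of zone-marked not cycling Myc-positive barcodes 9 of 11 (81.8%, exact 95% binomial interval 48.2% to 97.7%) in library 1 and 15 of 15 (100%, 78.2% to 100%) in library 2 were light zone. Of cycling ones 208 of 279 (74.6%, 69.0% to 79.6%) and 208 of 263 (79.1%, 73.7% to 83.8%) were. The difference, cycling minus not cycling, was −14.1 ± 9.65 percentage points (SD, n = 2), and the intervals of the classes overlapped in both libraries. At matched depth it was 7.5 points in library 1 and −25.0 in library 2, with opposite signs. With 2 libraries no exact test can reach 0.05, so none was made. Neither zone had a UMI in 4 of 17 and 8 of 25 not cycling barcodes (23.5% and 32.0%), against 55.0% and 50.4% of cycling ones.

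Isotype was called where at least 5 heavy chain UMIs were found and at least 80% of them were of IgG, or of IgM and IgD. Of called barcodes, IgG made up 5 of 13 (38.5%, 13.9% to 68.4%) and 2 of 19 (10.5%, 1.30% to 33.1%) of not cycling Myc-positive cells. In cycling ones it made up 297 of 524 (56.7%, 52.3% to 61.0%) and 271 of 465 (58.3%, 53.6% to 62.8%). The intervals did not overlap in library 2 and overlapped in library 1. The difference was 33.0 ± 20.9 points (SD, n = 2), 18.2 and 47.8. At matched depth it was −8.33 in library 1 and 51.4 in library 2, so the direction held in library 2 alone, while in the larger matched set it was 14.8 and 29.9. In not cycling Myc-negative cells IgG made up 55.2% and 47.3%, above the not cycling Myc-positive shares in both libraries. Without the resting-like barcodes the difference was 16.0 and 51.8 points.

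**Figure D5:**
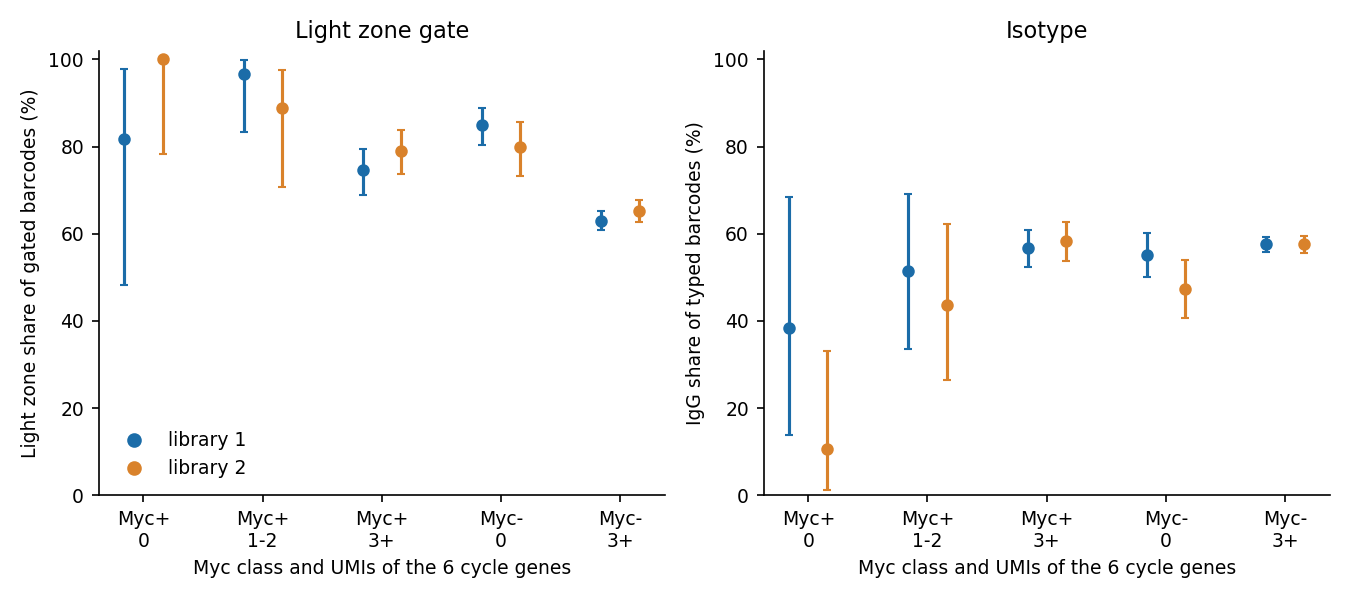
Share of light zone barcodes among zone-marked ones and of IgG among barcodes called IgG or IgM and IgD, in percent, for each class and library, with exact 95% binomial intervals as bars. Light zone shares of the Myc-positive classes overlap, and the IgG share of not cycling Myc-positive barcodes in library 2 is the lowest, at 10.5%.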

How the data were processed

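RNA of sorted splenic germinal center B cells was measured in 2 libraries of 1 group. The deposited files hold raw UMI counts per gene and barcode, and per the file headers the authors made them with Cell Ranger 3.0.2. The genome is mm10, and GENCODE M21 gave coordinates. Kept barcodes (6567 and 4851) had medians of 7236 and 7170 UMIs, which with 17 and 25 not cycling barcodes sets the precision.

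From these counts, sums per library and class were fitted with edgeR 4.0.16 (quasi-likelihood test, TMM, filterByExpr, Benjamini-Hochberg at 0.05) in R 4.3.3. The comparison within Myc-positive cells used 4 sums (1 residual degree of freedom, infinite prior). The equal-depth comparison between the cycling classes also used 4 sums (1), and its prior was not recorded. The other comparisons used 8 sums (3). Both classes come from each library, so library was the replicate block. Depth-matched classes are 1 random draw per bin of 0.25 log2 units. DESeq2 1.42.0, thinned counts (2000 UMIs) and stricter limits were alternatives. The scripts were tested on simulated data.

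Scrublet (scanpy 1.11.5) called 0 doublets in both libraries and so did not work here. Removing the 6% of barcodes with the highest scores was an alternative, and doublets remain possible. The members, lists and settings were chosen with earlier results of these data known. Named genes were, per list, the called members with the lowest p (up to 4 a direction), the 10 largest changes each way outside the lists (at least 20 CPM, same sign in both libraries, called on thinned sums), and 5 each way by p in the other comparisons. Others named were chosen after their values were seen. Promoter windows came from RefSeq, and genes without a window are named only. Some genes that the rule selects are not reported here.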

Additional observations from a re-analysis of the deposited data

Results flagged for a closer look

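In 19 of the genes named in the report, the change from not cycling to cycling differed between Myc-positive and Myc-negative cells by edgeR's test of the interaction. Values are differences of log2 fold changes, and below 0 means a stronger decrease with cycling in Myc-positive cells. In the light zone and NF-kB lists these were Il4i1 (−0.83), Icam1 (−1.11), Bcl2a1b (−1.32), Nfkbiz (−1.89) and Tnfaip3 (−2.07). Among resting-cell, cytoskeletal and p200 family genes they were Btg1 (−1.01), Capg (−1.24), Zeb2 (−1.30), Ifi203 (−1.31), Mndal (−1.57) and Marcks (−1.99). Of these, Capg had opposite signs in the libraries (0.15 and −1.51), and Btg1 (−0.13 and −1.42) and Zeb2 (−0.51 and −1.41) were nearer to 0 in library 1 than in library 2. The amino acid transporter gene Slc38a2 had −0.79. Psap (−1.81) was −2.66 in library 1 and −0.90 in library 2, and Hmox1 (−6.55), with no not cycling Myc-positive UMI in library 2, −7.63 and 3.16, beside macrophage markers at 1121 and 28.8 CPM in that class. Pld3 (−2.52) was alike in both libraries, at −2.51 and −2.67. Above 0 were Calr (1.04), Ccnd3 (1.15), Mybbp1a (1.34) and Sdad1 (2.36).

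Without other-lineage barcodes Hmox1, Psap, Pld3, Icam1, Nfkbiz, Zeb2, Slc38a2, Tnfaip3, Ifi203 and Sdad1 did not pass. Of the 19, Psap passed on thinned sums, and none of those tested at matched depth passed.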

How the results depend on the processing

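Calls depended on depth and on few barcodes. Cycling against not cycling Myc-positive cells gave 1120 calls, and 381 with DESeq2, 187 at 2 or more Myc UMIs, 331 at matched depth (175 higher, 156 lower), 105 at a mitochondrial limit of 10%, 2786 with not cycling at 0 to 2 UMIs (1569 higher, 1217 lower) and 315 on thinned sums (251 higher, 64 lower). The difference from Myc-negative cells gave 52, and 141 with classes on thinned counts, 0 at matched depth, 19 at the mitochondrial limit, 121 at 0 to 2 UMIs, 3 on thinned sums, and 30, 27 and 29 without other-lineage, resting-like and top light zone barcodes. Myc-positive against Myc-negative not cycling cells gave 196, and 2934, 5, 60, 807 and 41 in the first 5 of these settings, 119 without resting-like and 88 without top light zone barcodes. For cycling cells 5976 became 2940 with DESeq2, 0 in the small matched classes (94 at an unadjusted p under 0.05), 2279 when matched between cycling classes, 3806 at the mitochondrial limit and 2065 on thinned sums. The light zone difference was −23.9 points on unthinned counts. Leaving out 1 library moved it from −20.9 to −7.27 and the IgG difference from 18.2 to 47.8, and left no residual degree of freedom for a count of calls.

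On thinned sums the calls of the last 2 comparisons split into 16 higher and 25 lower, and 1297 higher and 768 lower. With classes on thinned counts the first comparison gave 647 higher and 599 lower.

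Without the replicate block, the pairing of classes by library, the 4 comparisons gave 1459, 1, 45 and 4038 calls.

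These log2 fold changes turned sign. At matched depth they were Jun 0.11, Npm1 −0.78, Eif5a −0.64, Nme1 −0.32, Pgk1 −0.15, Pgam1 −1.12, Cycs −0.88, Ndufa4 −0.95 and Hspd1 −0.38. In the larger matched set they were Npm1 −0.34, Srm −0.52, Eif5a −0.25, Nme1 −0.22, Pgam1 −0.38, Uqcrb −0.17, Cycs −0.36, Cox6c −0.26, Ndufa4 −0.32, H2-DMb1 0.15 and Cdk4 −0.051. Leaving out 1 library, Egr3 ranged from −4.81 to 5.71 and Egr1 from −2.53 to 0.75. Jchain was −0.072 with classes on thinned counts. The interaction of Hmox1 was 7.12 at 2 Myc UMIs and 7.48 without other-lineage barcodes. Between cycling classes in the small matched sets Ppp1r14b was −1.30 and Pdzd2 0.25. The cause was not tested.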
